A study of Oryza sativa with 60 samples.

Results

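In rice anthers, 200 genes kept a high mRNA level while the anther grew from 0.4 to 1.0 mm and a lower one in all longer anthers. They were taken from 35594 gene IDs of the Kitaake annotation. For each ID the deposited FPKM rows (fragment counts scaled to transcript length and library size) were summed, and log2(FPKM + 1) was averaged per anther length. For every stretch of consecutive lengths the gap was the lowest mean inside it minus the highest mean outside it. Genes whose widest gap was for 0.4, 0.6, 0.8 and 1.0 mm, with a gap of at least 0.5 and a mean of at least 5 FPKM at each of these 4 lengths, numbered 208, and the 200 with the widest gaps are described here. Since measured levels at all 10 lengths chose these genes, the difference between the first 4 lengths and the later 6 is given as a description, with no test.

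The anthers came from wild-type plants of Kitaake, a japonica rice cultivar widely used in the laboratory, grown in a greenhouse. All groups share this genotype, and their labels tell them apart by anther length. The lengths were 0.4, 0.6, 0.8, 1.0, 1.2, 1.4, 1.6, 1.8, 2.0 and 2.5 mm, with 3 biological replicates each. RNA of 20 to 30 anthers was pooled per sample. Polyadenylated RNA was sequenced in 30 libraries. Small RNA libraries of the same series were not used here.

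In rice, the length of an anther is used as a guide to its stage. Young anthers lay down their wall layers around the cells that will enter meiosis. The innermost layer, the tapetum, feeds the developing microspores and later breaks down, and the microspores released after meiosis become pollen in the longest anthers. The sources used here give lengths and no cytological stages, so lengths are used throughout.

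The deposited tables do not pair the gene IDs with names, and 0 of the IDs occur in the RefSeq gene table of japonica rice. Marker genes of meiosis, of the tapetum or of pollen could therefore not be looked up, and the label of the tissue was not checked against markers. No function is given for any gene below, and only a few IDs are printed for each comparison.

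The libraries listed 17391 to 21213 genes at 1 FPKM or more, and their sequencing depth is not known from these values. In 25 of 30 libraries the group mean with the highest correlation across genes was that of their own length. Replicate 2 of 1.2 mm was closer to the 1.0 mm mean (r = 0.950) than to the other 1.2 mm libraries (r = 0.924), replicate 3 of 1.2 mm was closer to 1.4 mm (r = 0.963 against 0.926), and replicate 3 of 0.8 mm was marginally closer to 1.0 mm (r = 0.972 against 0.970). Replicate 3 of 2.5 mm was closer to 2.0 mm (r = 0.932 against 0.895), and replicate 3 of 0.4 mm marginally closer to 0.6 mm. In replicate 1 of 1.4 mm a single gene held 15.6% of the summed FPKM. Counts and named genes whose call or size turned on 1 of these libraries are given with and without it. The summed FPKM of the 1.2 mm libraries were 420455, 483532 and 473302, below those of all other libraries (497816 to 614878).

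**Figure D1:**
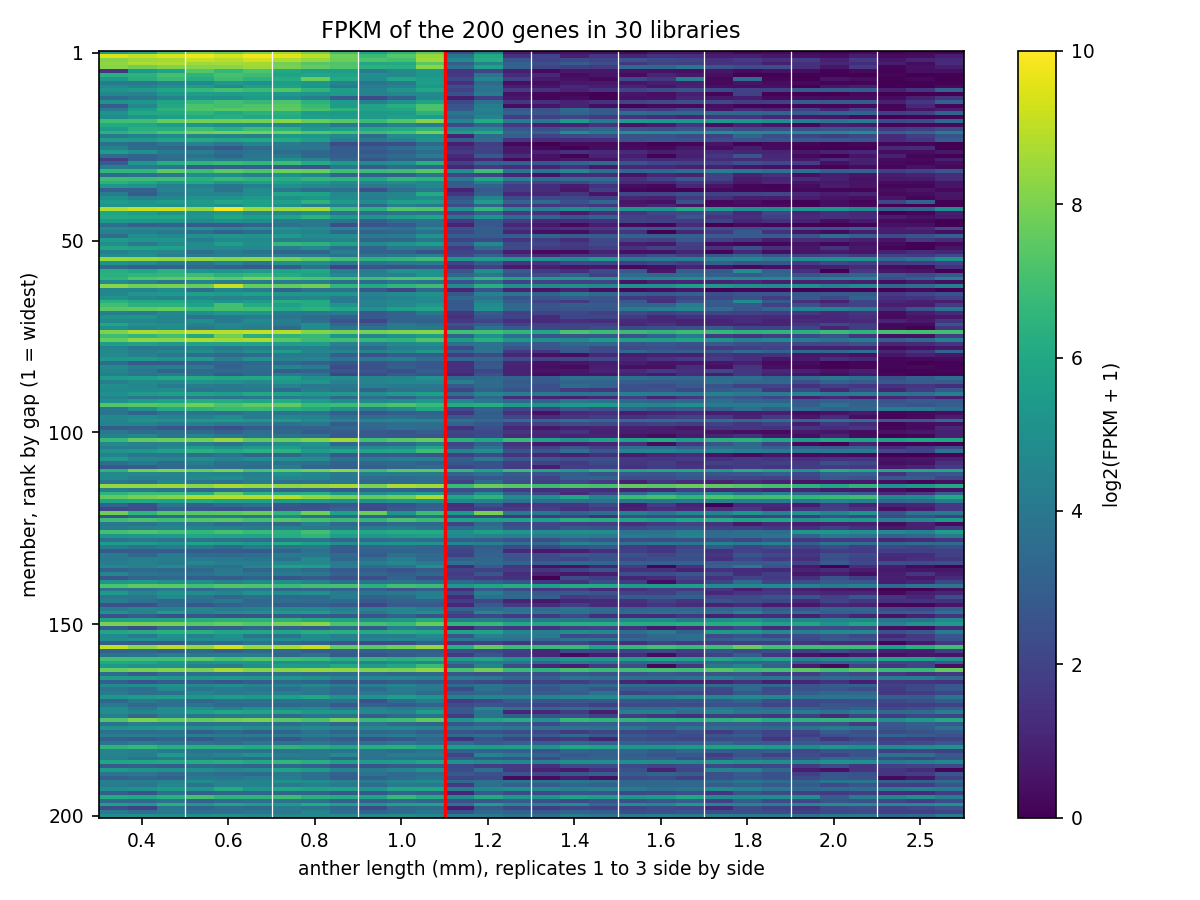
Levels of the 200 genes (rows, ordered by gap with the widest on top) in 30 libraries (columns, by anther length in mm with replicates 1 to 3 side by side), as log2(FPKM + 1) in colour; the red line stands between 1.0 and 1.2 mm. Levels drop to the right of the line in nearly all rows, and the middle column of 1.2 mm, replicate 2, is brighter than its neighbours in many of them.

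Levels of the 200 genes were similar from 0.4 to 0.8 mm and lower by 1.0 mm, before the drop that defined them. The median over genes of the mean level, taken in order of anther length, was 26.3, 25.1, 23.6 and 17.7 FPKM for the first 4 lengths. For 1.2 to 2.5 mm it was 7.15, 3.70, 3.92, 3.99, 3.11 and 1.90 FPKM. Without replicate 2 of 1.2 mm the value at 1.2 mm was 5.04 FPKM. Together the genes held 2.32% ± 0.124 of the summed FPKM in 0.4 mm anthers (mean ± SD, n = 3), 2.81% ± 0.0666 in those of 0.6 mm, 2.26% ± 0.488 in those of 0.8 mm and 1.53% ± 0.312 in those of 1.0 mm. Their share was 0.693% ± 0.238 at 1.2 mm and lay between 0.356% ± 0.00538, at 2.0 mm, and 0.451% ± 0.0254, at 1.6 mm, in the next 4 lengths. It was lowest at 2.5 mm, 0.239% ± 0.0624. Anther RNA is a mixture of cell types, so fewer cells of a type and less mRNA per cell cannot be told apart in these values.

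Single libraries shaped the edge. At 1.2 mm the median member had 5.25 FPKM in replicate 1, 10.4 in replicate 2 and 4.86 in replicate 3. At 0.8 mm it had 28.1, 26.7 and 17.2 FPKM in replicates 1, 2 and 3, and at 1.0 mm 15.2, 17.6 and 19.1 FPKM. Replicate 3 of 0.8 mm thus lay inside the range of the 1.0 mm libraries, while replicate 2 of 1.2 mm lay between the 1.0 mm libraries and the other 1.2 mm libraries. In that library 133 of the 200 genes were closer to their 1.0 mm mean than to their 1.4 mm mean, compared with 30 genes in replicate 1 and 8 in replicate 3 of 1.2 mm. Of the 18 libraries of 1.2 to 2.5 mm, it was the highest for 127 genes. Of the 12 libraries of 0.4 to 1.0 mm, replicate 1 of 1.0 mm was the lowest for 83 genes.

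**Figure D2:**
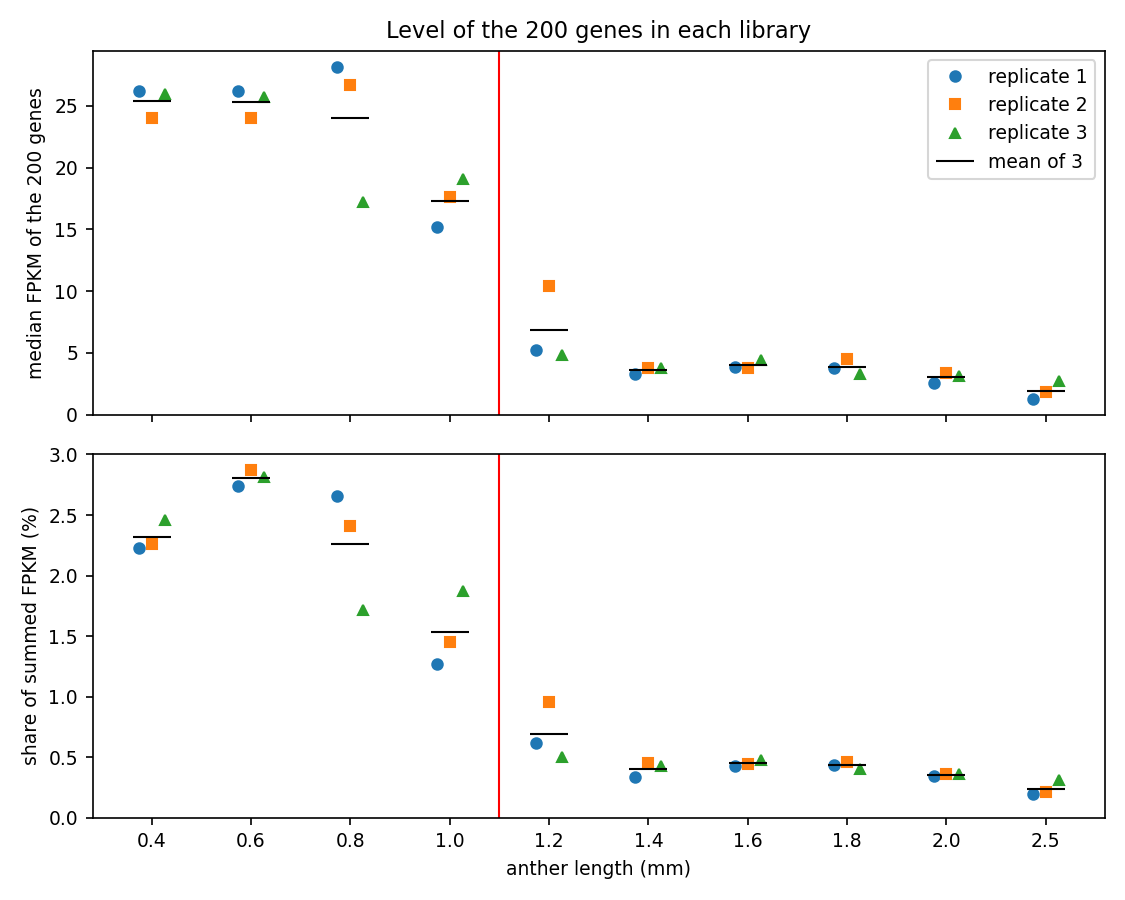
Median FPKM of the 200 genes (upper panel) and their share of the summed FPKM of each library in percent (lower panel) against anther length in mm, with lengths evenly spaced, 1 symbol per library and a bar for the mean of 3. The medians are 15.2 to 28.1 FPKM left of the red line (0.4 to 1.0 mm) and 1.24 to 10.4 FPKM right of it, where replicate 2 of 1.2 mm is the highest.

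The genes differed widely in level and in the size of the drop. Their mean over the first 4 lengths ran from 5.51 to 540 FPKM with a median of 23.6; 30 genes had at least 100 FPKM and 24 had under 10. The 10 most abundant held 30.5% of the summed level. The gap ran from 0.53 to 3.80 on the log2(FPKM + 1) scale, with a median of 0.94 and quartiles of 0.70 and 1.28. Without replicate 2 of 1.2 mm the median gap of the same genes was 1.07. With all libraries the gap was at least 1 for 92 genes, at least 2 for 17 and at least 3 for 3. At the limit of the list, the last 2 genes taken had gaps of 0.528 and 0.526, and the first 2 left out had 0.522 and 0.518. In 124 genes all 12 libraries of 0.4 to 1.0 mm were above all 18 libraries of 1.2 to 2.5 mm, compared with 1.90% of the 26091 genes that reached 1 FPKM in 3 or more libraries, which are the genes tested below. Since the choice used this difference, nothing is read from that share.

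From 1.0 to 1.2 mm, the edge that the choice fixed, the level left at 1.2 mm was 45.3% of that at 1.0 mm in the median gene. It ranged from 7.13% to 84.0%, with replicate 2 of 1.2 mm included. The median difference of 1.2 minus 1.0 mm was -1.11 on the log2 scale (quartiles -1.62 and -0.87), and -0.15 over all genes tested. By group means, 174 of the 200 genes were lower again at 1.4 mm than at 1.2 mm, and 156 without replicate 2 of 1.2 mm. The same count over all genes tested was not worked out, and the rule limits rises at 1.4 mm.

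OsKitaake02g174100.v3.1 had the widest gap, 3.80 on the log2 scale. Its replicates 1, 2 and 3 had 45.5, 61.9 and 137 FPKM in 0.4 mm anthers. They had 238, 189 and 255 FPKM in 0.6 mm anthers, where the level was higher, and 359, 226 and 118 FPKM in 0.8 mm anthers. Levels were 51.7, 82.7 and 181 FPKM at 1.0 mm and 4.02, 17.8 and 0.582 FPKM at 1.2 mm. From 1.4 mm on all 15 libraries lay between 0.0419 and 0.485 FPKM. The 12 early libraries and the 18 later ones did not overlap, and replicate 2 of 1.2 mm was the highest of the later ones.

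OsKitaake03g279800.v3.1, with the next widest gap (3.75), was also the most abundant of the 200, at 540 FPKM over the first 4 lengths. It had 701, 549 and 715 FPKM in 0.4 mm anthers and 885, 663 and 906 FPKM in 0.6 mm anthers. The 0.8 mm libraries had 730, 492 and 227 FPKM and the 1.0 mm libraries 110, 170 and 336 FPKM. At 1.2 mm replicates 1, 2 and 3 had 13.4, 66.6 and 1.71 FPKM, and all libraries of 1.4 to 2.5 mm lay between 0.216 and 3.06 FPKM. Here too the early and later libraries did not overlap. The gap of this gene was 2.57 without replicate 3 of 1.2 mm and 4.89 without replicate 2, and that of OsKitaake02g174100.v3.1 was 2.93 and 4.71.

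**Figure D3:**
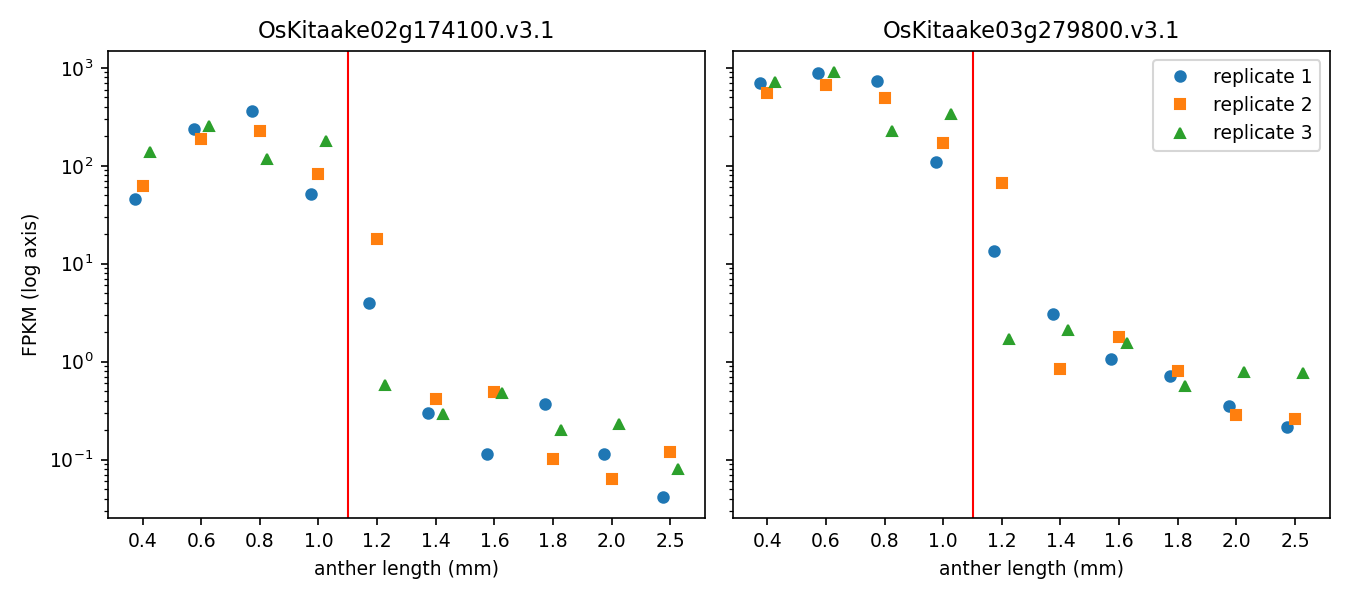
FPKM on a log axis against anther length in mm, with lengths evenly spaced and 1 symbol per library, for the 2 genes with the widest gaps. OsKitaake02g174100.v3.1 (left) lies at 45.5 to 359 FPKM and OsKitaake03g279800.v3.1 (right) at 110 to 906 FPKM left of the red line; at 1.2 mm their libraries spread from 0.582 to 17.8 and from 1.71 to 66.6 FPKM.

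The 20 genes with the widest gaps, all of 1.79 or more, were mostly highest at 0.6 mm: 16 had their highest mean there, 2 at 0.4 mm and 2 at 0.8 mm. Their lowest early mean was between 11.9 and 216 FPKM and their highest later mean between 1.30 and 39.1 FPKM. By 2.5 mm 16 of the 20 averaged under 1 FPKM, and the highest averaged 5.75. In 17 of them the early and later libraries did not overlap, compared with 1.90% of all genes tested. The ranking by gap used this difference, so nothing is read from that count.

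To see the pattern in libraries that had no part in choosing genes, the same rule was applied to 2 replicate numbers of every length and the third was then inspected. The rule on replicates 2 and 3 chose 200 genes. In the replicate 1 libraries, 174 of these (87%) had all 4 early values above all 6 later ones, compared with 10.3% of all genes tested. In the replicate 2 libraries it was 143 of 200 (71.5%), compared with 8.16%, for genes chosen on replicates 1 and 3. Replicates 1 and 2 alone gave 75 genes, of which 69 (92%) had the pattern in replicate 3, compared with 11.6%. The median gap of the chosen genes in the unused libraries was 0.60, 0.31 and 0.76 on the log2 scale for replicates 1, 2 and 3, and over all genes tested it was -0.89, -0.94 and -0.81. With quantile normalization the median gaps were 0.44, 0.11 and 0.80, and 77.2%, 56.3% and 84.8% of the chosen genes had the pattern in replicates 1, 2 and 3, compared with 7.16%, 6.48% and 10.3% of all genes. The lists on the deposited scale shared 138, 134 and 63 genes with the 200, and their shares are a description with no test. The genes tested were not held to the rule's limits on early level and gap, so they are not a matched set.

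Within the early lengths the genes were not level. By group means 90 of the 200 peaked in 0.4 mm anthers, 75 in those of 0.6 mm, 31 in those of 0.8 mm and 4 in those of 1.0 mm, and 138 were lowest in 1.0 mm anthers. A limma F test found differences among 0.4, 0.6, 0.8 and 1.0 mm in 60 genes (30%; Benjamini-Hochberg adjusted p under 0.05 over all genes), compared with 22.4% of all genes tested. Of these 60, 34 peaked at 0.4 mm, 23 peaked at 0.6 mm and 3 peaked at 0.8 mm, and 52 had their lowest mean at 1.0 mm. The rule limits steps between these lengths, since a gene with a wider gap for another stretch would not have been chosen. With a pseudocount of 0.1 in place of 1 the count was 30 of 200, below the 20.7% of all genes. Without replicate 1 of 1.0 mm it was 38 of 200, next to 18.3% of all genes, and without replicate 3 of 0.8 mm it was 72, next to 22.4%. An excess of such genes among the 200 is therefore not read from these counts.

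Between 1.0 and 0.4 mm, the ends of the early lengths, far more of the genes fell than rose. In limma, 40 of the 200 (20%) were lower at 1.0 mm and 2 (1%) were higher, with a Benjamini-Hochberg adjusted p under 0.05 and a difference of 1 log2 unit or more on the log2(FPKM + 1) scale. Of all genes tested 9.31% were lower and 5.76% higher. The rule used both lengths and asked for at least 5 FPKM at each. It therefore limits rises from a low level at 0.4 mm, a limit that the genes tested do not share. Fold changes on this scale understate those of low genes, so the genes tested are not a matched set for falls either. The median log2 fold change of the 200 was -0.46, that of all genes -0.18, and 155 of the 200 had a negative value. With quantile normalization the medians were -0.33 and -0.01, and 35 of the 200 were lower and 2 higher, next to 6.57% lower and 6.96% higher of all genes.

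The fall before 1.0 mm was largest in OsKitaake04g214200.v3.1. It had 62.1, 68.5 and 173 FPKM at 1.0 mm and 326, 438 and 451 FPKM at 0.4 mm, so the libraries did not overlap (-2.14 ± 0.35 log2 units, fold change ± SE; limma adjusted p = 3.46e-05). This gene continued to 11.9 ± 8.06 FPKM at 1.2 mm and 0.763 ± 0.547 at 2.5 mm (mean ± SD, n = 3).

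OsKitaake05g272200.v3.1 followed, with 81.2, 156 and 148 FPKM at 1.0 mm and 449, 550 and 619 FPKM at 0.4 mm (-2.11 ± 0.51 log2 units, fold change ± SE; limma adjusted p = 0.00300). One library of 0.6 mm stood out at 933 FPKM, beside 336 and 359 in the others. In later anthers this gene stayed well above 0, at 22.1 ± 5.53 FPKM at 1.4 mm and 47.3 ± 18.4 at 1.6 mm.

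The other direction was carried by few libraries. OsKitaake05g229500.v3.1 had 19.5, 22.8 and 69.0 FPKM at 1.0 mm and 17.1, 6.71 and 16.5 FPKM at 0.4 mm (1.27 ± 0.44 log2 units, fold change ± SE; limma adjusted p = 0.0353). The groups did not overlap, but 2 of the 1.0 mm libraries were close to those of 0.4 mm. The call was lost without replicate 3 of 1.0 mm (adjusted p = 0.268), without replicate 2 of 0.4 mm (0.215), with a pseudocount of 0.1 (0.0835), without the filter on low values (0.0512) and in a limma fit on these lengths alone (0.172). It was the only called riser whose groups did not overlap.

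After 1.0 mm the genes took different courses. In 117 of the 200 the highest later mean was at 1.2 mm, and in the other 83 it came at 1.4 mm or later, most often at 1.8 mm (30 genes) or 1.6 mm (24 genes). From 1.2 to 2.5 mm, in order of length, the median level of the 117 genes was 7.15, 3.09, 2.44, 2.06, 1.41 and 0.877 FPKM. The median of the 83 genes over the same lengths was 7.07, 4.89, 6.35, 7.09, 6.07 and 3.61 FPKM. The split was made from these same means, so the contrast of the medians is a description. It also rested on replicate 2 of 1.2 mm: without that library 83 genes had their highest later mean at 1.2 mm and 117 at 1.4 mm or later. The medians of these 2 sets were then 5.07 and 5.01 FPKM at 1.2 mm and 0.763 and 3.32 FPKM at 2.5 mm.

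**Figure D4:**
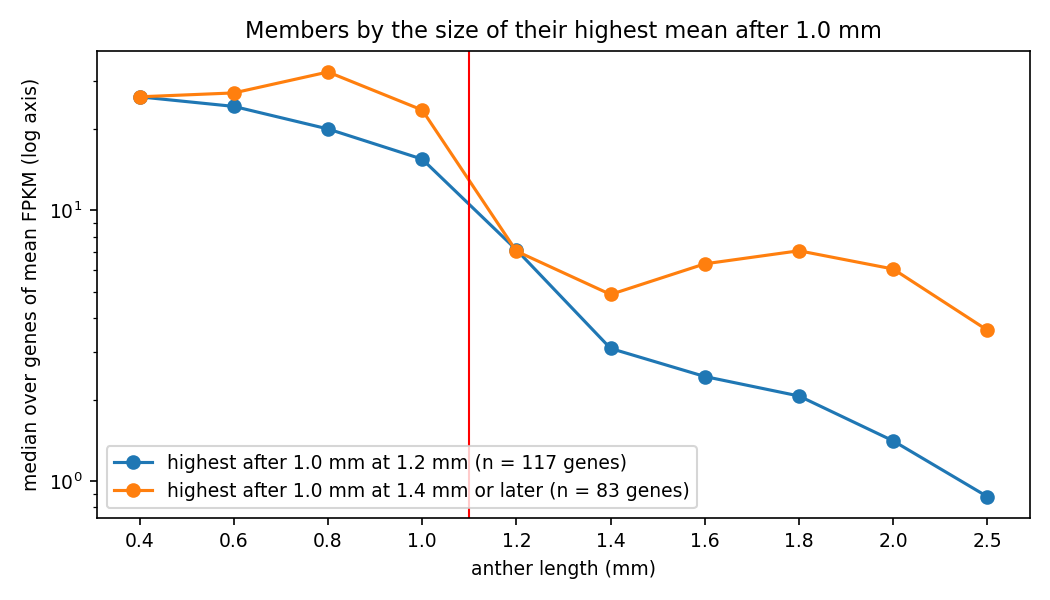
Median over genes of the mean FPKM (log axis) against anther length in mm, with lengths evenly spaced, for the 117 genes whose highest mean after 1.0 mm was at 1.2 mm (blue) and the 83 genes where it was at 1.4 mm or later (orange). Both medians are close to 7 FPKM at 1.2 mm; the blue line goes on down to 0.877 FPKM at 2.5 mm, while the orange one is 7.09 FPKM at 1.8 mm.

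Most of the genes stayed above 1 FPKM after the drop. In order of length from 1.2 to 2.5 mm, 1, 29, 29, 30, 57 and 74 of the 200 had a mean under 1 FPKM. One gene was listed at 0 in all 3 libraries of 2.0 mm and 1 in all 3 of 2.5 mm. At the other end, 48 genes kept a mean of at least 5 FPKM at all 6 later lengths, although below their early means. Relative to the lowest early mean, the median gene had 12.7% left at 2.5 mm, 61 genes had under 5% and 10 had over 50%. In 131 of the 200 the lowest later mean was at 2.5 mm. A limma F test found differences among 1.2, 1.4, 1.6, 1.8, 2.0 and 2.5 mm in 151 genes (75.5%; adjusted p under 0.05), compared with 81.2% of all genes tested.

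Between 1.4 and 1.2 mm, 24 genes (12%) fell and 0 rose in limma, compared with 2.29% lower and 2.97% higher of all genes tested. At an unadjusted p under 0.05, 83 were lower and 0 higher, with replicate 2 of 1.2 mm included. The share of all genes at that limit was not worked out, so nothing is read from those 83. The rule used both lengths and limits rises here too, since a gene back near its early level at 1.4 mm would not have been chosen. The count of falls rested on the 1.2 mm libraries. Without replicate 2 of 1.2 mm it was 1 of 200, next to 0.832% of all genes, so that the excess over all genes was gone. Without replicate 3 it was 64, next to 3.79%, and a fit on these lengths alone called 0 members and 0 genes of the whole table. It was also 11 without replicate 1 of 1.4 mm, next to 1.89% of all genes, and 5 without replicate 2, next to 1.51%. Rescaling to TPM gave 48 and quantile normalization 41, next to 3.51% and 3.15% of all genes. The median log2 fold change was -0.57 over the 200 genes and 0.07 over all genes, and -0.29 and 0.06 without replicate 2 of 1.2 mm.

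OsKitaake03g320700.v3.1 showed the widest difference of this kind. It had 3.00, 3.72 and 2.98 FPKM at 1.4 mm, against 25.0, 72.0 and 5.40 at 1.2 mm (-2.45 ± 0.51 log2 units, fold change ± SE; limma adjusted p = 0.00365). The groups did not overlap, but the 1.2 mm libraries were spread widely, with a mean ± SD of 34.1 ± 34.3 FPKM. Without replicate 2 of 1.2 mm the log2 fold change was -1.61 and the adjusted p 0.0534, and on these lengths alone the adjusted p was 0.606.

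OsKitaake06g082100.v3.1 had 3.29, 2.69 and 2.21 FPKM at 1.4 mm, against 12.0, 52.4 and 7.60 at 1.2 mm (-2.29 ± 0.46 log2 units, fold change ± SE; limma adjusted p = 0.00292). Without replicate 2 of 1.2 mm the log2 fold change was -1.51 (adjusted p = 0.0403), and on these lengths alone the adjusted p was 0.606. The gene was then higher at 1.6 mm, with 9.76, 8.75 and 14.2 FPKM, and had 0.0931, 0.416 and 0.693 FPKM at 2.5 mm. The difference of 2.5 against 1.6 mm was the largest fall of that comparison among the 200 (-3.08 ± 0.46 log2 units, fold change ± SE; limma adjusted p = 4.26e-06).

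Between 1.6 and 1.4 mm few of the genes were called. In limma, 13 (6.5%) were higher at 1.6 mm and 7 (3.5%) lower, compared with 12.9% and 7.83% of all genes tested. Median log2 fold changes were 0.02 for the 200 and 0.14 for all genes. The rule limits rises here, because a gene that returned to its early level would not have been chosen. Of the 13 risers 11 belonged to the 83 genes with a late highest mean, which the split itself favours. With quantile normalization 13 were higher and 16 lower, next to 10.6% and 9.78% of all genes. With a pseudocount of 0.1 18 were higher and 16 lower, next to 16.8% and 9.96%. TPM gave 15 higher and 12 lower, next to 15.3% and 9.14%. The share of falls among the 200 was below that of all genes on each of these scales. How far below depended on the scaling, and the difference was not tested. The 7 falls became 3 without replicate 3 of 1.4 mm, next to 6.81% of all genes. They became 11 without replicate 3 of 1.6 mm, next to 7.45%.

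OsKitaake12g197800.v3.1 came back most between these lengths. It had 19.7, 19.8 and 11.9 FPKM at 1.6 mm, against 1.14, 2.40 and 0.677 at 1.4 mm (2.94 ± 0.43 log2 units, fold change ± SE; limma adjusted p = 7.23e-06). Its early means were 26.3 to 56.7 FPKM, so the later level was a partial return, and it was still 13.0 ± 4.92 FPKM at 2.5 mm (mean ± SD, n = 3).

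A similar course was seen for OsKitaake03g048400.v3.1, with 9.68, 22.9 and 16.0 FPKM at 1.6 mm, against 3.23, 1.32 and 3.04 at 1.4 mm (2.26 ± 0.47 log2 units, fold change ± SE; limma adjusted p = 5.19e-04). It had 22.0 ± 7.98 FPKM at 1.8 mm and 3.73 ± 3.40 at 2.5 mm, after 106 ± 11.4 at 0.4 mm.

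Falls between these lengths were smaller. OsKitaake05g164700.v3.1 had 1.68, 3.18 and 5.61 FPKM at 1.6 mm, against 10.0, 11.3 and 11.4 at 1.4 mm (-1.5 ± 0.37 log2 units, fold change ± SE; limma adjusted p = 0.00247). Its earlier means were 118 ± 4.63 FPKM at 0.4 mm, 79.7 ± 18.0 at 1.0 mm and 30.4 ± 23.5 at 1.2 mm (mean ± SD, n = 3). OsKitaake03g383500.v3.1 had 0.455, 0.379 and 4.64 FPKM at 1.6 mm, against 9.55, 4.72 and 8.51 at 1.4 mm (-1.89 ± 0.60 log2 units, fold change ± SE; limma adjusted p = 0.0172). The nearest libraries of both groups all but met, and the adjusted p was 0.0525 on these lengths alone and 0.0592 to 0.0954 without replicate 1 or 3 of 1.4 mm or replicate 1 or 2 of 1.6 mm.

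Between 2.5 and 1.6 mm the share of the 200 genes that fell was near that of all genes. In limma 69 (34.5%) were lower at 2.5 mm and 2 (1%) higher, compared with 30.0% lower and 9.06% higher of all genes tested. The median log2 fold change was -0.68 for the 200 and -0.53 for all genes. Quantile normalization moved these medians to -0.28 and -0.13 and gave 31 of 200 lower and 6 higher, next to 16.7% and 13.6% of all genes. Without replicate 3 of 2.5 mm 80 were lower and 2 higher, next to 37.9% and 9.13% of all genes. The rule also limits rises in this comparison.

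OsKitaake01g291400.v3.1 fell to 3.56, 3.99 and 9.68 FPKM at 2.5 mm, against 40.8, 39.5 and 36.9 at 1.6 mm (-2.68 ± 0.43 log2 units, fold change ± SE; limma adjusted p = 1.07e-05). Its groups were far apart, and its 1.6 mm level followed 23.8 ± 16.3 FPKM at 1.4 mm and 182 ± 88.2 at 1.0 mm (mean ± SD, n = 3).

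Both called risers sat near the fold limit. OsKitaake03g039900.v3.1 had 25.9, 21.5 and 47.2 FPKM at 2.5 mm, against 12.5, 12.6 and 18.3 at 1.6 mm (1.01 ± 0.24 log2 units, fold change ± SE; limma adjusted p = 7.61e-04). It had sunk to 10.9 ± 1.05 FPKM at 1.8 mm and stood at 35.0 ± 3.19 at 2.0 mm, after 135 ± 13.3 at 0.4 mm. With TPM its log2 fold change was 0.85, under the limit of 1, as it was without replicate 1 (0.93) or 2 (0.93) of 1.6 mm or replicate 3 of 2.5 mm (0.69). OsKitaake05g270400.v3.1 had 16.9, 16.3 and 10.3 FPKM at 2.5 mm, against 7.74, 5.49 and 6.52 at 1.6 mm (1.01 ± 0.43 log2 units, fold change ± SE; limma adjusted p = 0.0464). Its adjusted p was 0.0579 to 0.134 without any 1 of the 1.6 mm libraries or replicate 1 or 2 of 2.5 mm, 0.0679 without the filter on low values and 0.076 with TPM.

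**Figure D5:**
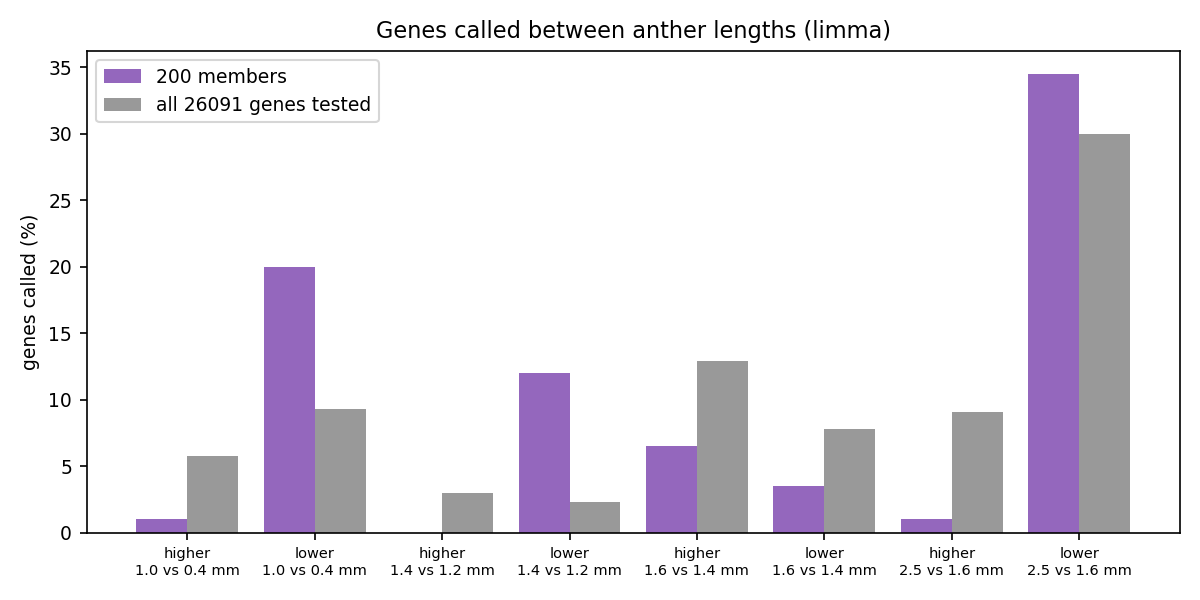
Percent of genes called higher or lower in limma (adjusted p under 0.05, difference of 1 log2 unit or more) in 4 comparisons of anther lengths, for the 200 members (purple) and all 26091 genes tested (grey). The purple bar is above the grey one for genes lower at 1.0 than at 0.4 mm (20% and 9.31%), lower at 1.4 than at 1.2 mm (12% and 2.29%) and lower at 2.5 than at 1.6 mm (34.5% and 30.0%). It is below the grey one for all 4 sets of risers and for genes lower at 1.6 than at 1.4 mm.

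The gene IDs carry a chromosome number and a running number, which the rule did not use. Members carried all chromosome numbers from 1 to 12, with 32 on chromosome 1, 26 on chromosome 5 and 8 on chromosome 11. As a share of the genes tested with that number they ranged from 0.484% (chromosome 4) to 1.24% (chromosome 5), around 0.767% over all. In the running order of the listed IDs, 4 pairs of members stood next to each other. The number of pairs among genes drawn without the rule was not worked out, so this count is neither high nor low by itself. The log2 levels within these pairs correlated at r = 0.905 to 0.956 over the 30 libraries, which share the rule's own pattern. Whether reads of near-identical neighbours were split between them was not tested. Among the 200 genes with the widest gaps for 0.4 and 0.6 mm alone there were 17 such pairs, and among the 200 for 0.4 to 1.4 mm there were 3; the differences between these lists were not tested. More than 1 transcript entry was listed for 45 of the 200 members (22.5%), and for 24.0% of all genes tested.

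For stretches that start at 0.4 mm, the number of genes differed with where the stretch ended. The same rule found 460 genes for 0.4 mm alone, 295 for 0.4 and 0.6 mm, 100 for 0.4 to 0.8 mm, 208 for 0.4 to 1.0 mm, 52 for 0.4 to 1.2 mm and 284 for 0.4 to 1.4 mm. It found 32 for 0.4 to 1.6 mm, 177 for 0.4 to 1.8 mm and 3367 for 0.4 to 2.0 mm, the largest of these sets. Which genes fall on which list depended on the processing. Of the 200, 126 were chosen again after rescaling each library to TPM, 107 after quantile normalization, and 157 with a pseudocount of 0.1. Without replicate 2 of 1.2 mm 289 genes met the rule, 198 of the 200 among them, and 141 of the 200 stayed within its first 200. All 3 of these alternatives kept 84 of the 200, and 57 stayed on the list whichever 1 of the 30 libraries was left out. Of the 20 genes with the widest gaps, 19 were kept by all 3 alternatives and 13 in all fits with 1 library less.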

How the data were processed

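For mRNA the authors deposited FPKM per transcript entry, named by gene ID only, with 48494 entries per library, per the file headers. The submitters' processing notes name HISAT2 2.1.1 and StringTie 2.1.4 among the tools. No genome build is given in the sources used here. FPKM were summed per ID, and whole reads could not be recovered, so no count model was used.

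The 26091 genes that reached 1 FPKM in 3 or more libraries, all 200 members among them, entered a limma 3.58.1 model (lmFit, then eBayes with trend) on log2(FPKM + 1), with the 10 lengths as 1 factor and Benjamini-Hochberg adjustment over all genes. Fold changes on this scale understate those of low genes. Calls needed an adjusted p under 0.05 and, between 2 lengths, a difference of at least 1 log2 unit either way. The fit and the rule were run on simulated data as a check of the code, and nothing about the members is read from that. Named IDs are the 2 with the widest gap and, per comparison, up to 2 rising and 2 falling called members whose higher group averaged 5 FPKM or more and whose libraries did not overlap, the largest fold changes first. Members, comparisons and lists were chosen with earlier results of these data known.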

Additional observations from a re-analysis of the deposited data

How the results depend on the processing

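The 200 members and the 10 counts of called members were recomputed with a pseudocount of 0.1, no filter, TPM, quantile normalization, eBayes without trend, adjusted p alone, a fit on the compared lengths alone, the replicate number as a block and each library left out. The largest entry per gene (186 members kept) and leaving out both 0.8 mm replicate 3 and 1.2 mm replicate 2, as well as the split after 1.0 mm without 1.2 mm replicate 2, were added after seeing the data; following 1 transcript entry across libraries was not run, since entries carry no transcript ID. Members kept were 126 (TPM), 107 (quantile), 63 (without replicate 3 of every length) and 134 to 196 in the other fits with libraries left out. Higher at 1.0 than 0.4 mm were 2 members, but 0 with the pseudocount, 0 without the filter, 1 with TPM, 0 on these lengths alone and 0 to 3 with 1 library less; the lower count was 32 to 60 over all alternatives. Lower at 1.4 than 1.2 mm were 48 with TPM (3.51% of all genes), 41 with quantile normalization (3.15%) and 0 on these lengths alone (0%). The count was 1 without both added libraries (0.84%) and 1 to 64 with 1 library less (0.832% to 3.79%). Lower at 1.6 than 1.4 mm were 16 with the pseudocount (9.96% of all genes), 12 with TPM (9.14%) and 16 with quantile normalization (9.78%). The count was 16 with adjusted p alone (11.8%) and 3 to 11 with 1 library less (6.81% to 8.19%). Over all alternatives 9 to 18 were higher, next to 9.47% to 21.4% of all genes. At 2.5 against 1.6 mm, 1 without the filter (7.33% of all genes), 0 with TPM (8.64%) and 6 with quantile normalization (13.6%) were higher. With 1 library less 0 to 2 were higher (8.65% to 9.21%). Over all alternatives 31 with quantile normalization (16.7%) to 99 with the pseudocount (40.0%) were lower. With 1 library less 53 to 80 were lower (24.0% to 37.9%). Members differing among 0.4 to 1.0 mm were 30 with the pseudocount (20.7% of all genes) and 38 to 72 with 1 library less (18.3% to 22.4%). Without both added libraries the count was 86, next to 23.5% of all genes. Among 1.2 to 2.5 mm 137 to 174 members differed over all alternatives, next to 67.7% to 83.9% of all genes. The cause was not tested. No named gene reversed.

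Libraries with the same replicate number share only that number: over 135 pairs their deviations from group means correlated at a median r of -0.00222 (-0.383 to 0.342), and 14 of 30 libraries were closest to their own number. With the replicate block 40 members were lower (9.31% of all genes) and 2 higher (5.76%) at 1.0 than 0.4 mm. Lower at 1.4 than 1.2 mm were 22 (2.28%). At 1.6 against 1.4 mm 13 were higher (12.9%) and 7 lower (7.87%). At 2.5 against 1.6 mm 68 were lower (30.0%) and 2 higher (9.06%). With this block 58 differed early (22.2%) and 152 later (81.0%). Depth is unknown, so counting error could not be set beside low FPKM.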
